A study of Mus musculus with 9 samples.

Results

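Predicted loci, small nucleolar RNA (snoRNA) hosts, antisense transcripts and pseudogenes are the genes that an annotation names by serial number or by another gene rather than by a function of their own. They were chosen by symbol from a table of 2462 genes of the mouse caput epididymis, and 77 of them, 3.13% of the table, met the rule. Of these, 58 have a symbol of Gm and a number, 8 end in os, 7 end in -ps, 2 are Snhg host transcripts (Snhg5 and Snhg11) and 2 are the nuclear long noncoding RNAs (lncRNAs) Neat1 and Malat1. The os class counts Kcnmb4os2 and Tmem51os1, in which a number follows the suffix. No row of the table is named Meg3 or H19, which the rule also admits. Matched to RefSeq by NCBI gene identifier, 75 of the 77 had an annotation, as lncRNA for 42, as protein coding for 18, as transcribed pseudogene for 14 and as antisense RNA for 1, while Gm14436 and Gm29766 had none. RefSeq gives 6 of the Gm loci another symbol, since Gm11974 is Snhg15, Gm13051 is Zfp987, Gm13157 is Zfp984, Gm17252 is Pate1, Gm7120 is Tmem267 and Gm996 is Ajm1.

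The caput is the first large part of the epididymal duct, in which sperm mature, and its RNA was sequenced in 9 libraries of mice aged 14 weeks, 3 in each group. EDL mice are of wild-type genotype and had their efferent ducts ligated, which keeps testicular fluid and sperm out of the epididymis. W/Wv mice received no treatment and carry mutant alleles of Kit, with testes almost free of germ cells; Kit itself was not analysed here. WT mice are of wild-type genotype and received no treatment. The labels name no sham operation, no interval since ligation, no strain beyond the genotype and no origin of the 3 libraries in separate animals, so a p-value speaks of the spread between libraries, which may be technical.

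As background, the host genes of snoRNAs carry these guides of RNA modification in their introns, and the spliced host transcript is often a target of nonsense-mediated decay. Neat1 is the scaffold of paraspeckles and Malat1 gathers in nuclear speckles, both being bodies of the nucleus rich in splicing and RNA-binding proteins. Pseudogenes are copies that lost the function of a parent gene, yet some are transcribed, and antisense transcripts run opposite to the gene that lends them its name. Libraries selected for poly-A tails, as the labels' protocols describe, hold RNAs with such tails, among them spliced hosts, and not the snoRNAs themselves. Levels of Neat1 and Malat1 below are those of RNA captured by this selection, and forms without a tail may be missed.

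Promoters, from 250 bases before to 50 bases after the transcription start, were listed by RefSeq (GRCm38.p6) for 49 of the 77 loci. The following 5 belong to the 3 loci with the highest rises and the 2 with the deepest falls in either model against WT among those with a listed promoter. They are printed with CG dinucleotides in capitals, on the strand of the gene, 5′ to 3′.
Snhg11: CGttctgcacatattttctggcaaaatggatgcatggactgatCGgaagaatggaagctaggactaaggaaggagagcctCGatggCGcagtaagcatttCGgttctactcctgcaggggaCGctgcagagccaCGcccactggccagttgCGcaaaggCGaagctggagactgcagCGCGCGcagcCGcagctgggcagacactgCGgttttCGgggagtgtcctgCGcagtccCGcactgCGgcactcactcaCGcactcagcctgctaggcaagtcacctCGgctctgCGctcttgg
Kcnmb4os2: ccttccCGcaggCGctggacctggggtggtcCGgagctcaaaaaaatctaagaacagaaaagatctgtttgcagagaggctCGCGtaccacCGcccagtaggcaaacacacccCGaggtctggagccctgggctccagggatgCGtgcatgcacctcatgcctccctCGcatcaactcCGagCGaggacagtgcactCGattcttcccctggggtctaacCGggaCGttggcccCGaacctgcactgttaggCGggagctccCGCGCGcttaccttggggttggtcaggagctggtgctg
Gm5122: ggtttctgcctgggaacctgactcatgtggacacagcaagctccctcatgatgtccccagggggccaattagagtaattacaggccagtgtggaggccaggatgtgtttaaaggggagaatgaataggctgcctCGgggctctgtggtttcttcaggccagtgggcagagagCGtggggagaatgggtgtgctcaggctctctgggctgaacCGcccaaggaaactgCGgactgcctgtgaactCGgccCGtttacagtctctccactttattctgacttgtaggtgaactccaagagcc
Gm31763: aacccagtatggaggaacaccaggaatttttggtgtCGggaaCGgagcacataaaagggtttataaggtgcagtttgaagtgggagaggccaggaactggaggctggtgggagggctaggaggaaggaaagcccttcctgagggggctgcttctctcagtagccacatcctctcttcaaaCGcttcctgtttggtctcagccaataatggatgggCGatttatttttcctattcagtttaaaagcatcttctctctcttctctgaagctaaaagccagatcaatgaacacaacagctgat
Gm7120: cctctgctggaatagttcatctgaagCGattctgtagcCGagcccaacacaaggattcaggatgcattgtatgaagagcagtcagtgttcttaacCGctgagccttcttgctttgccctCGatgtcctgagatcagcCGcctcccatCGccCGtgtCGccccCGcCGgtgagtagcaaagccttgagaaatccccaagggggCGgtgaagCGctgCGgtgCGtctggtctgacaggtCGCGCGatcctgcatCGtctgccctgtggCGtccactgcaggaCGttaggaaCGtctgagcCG

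Snhg11 (chr2:158375463-158375762, plus strand) has 21 CG dinucleotides in this window, Kcnmb4os2 (chr10:116472913-116473212, plus strand) 19, Gm5122 (chr9:61016819-61017118, plus strand) 6, Gm31763 (chr10:67004825-67005124, plus strand) 4 and Gm7120 (chr13:119487836-119488135, plus strand, the first of the promoters listed for it) 22. The median was 8 over the 49 loci and 7 over all 32851 promoters in the RefSeq table. The TATA-box letters TATAAA, searched on both strands, were found in 13.6% of all promoters and in 7 of the 49. Of the 5 shown they stand only in that of Gm31763, on the strand opposite to the printed one, where the print reads TTTATA. The letters CCAAT were found in 37.4% of all promoters and in 20 of the 49, among them Gm5122 and Gm31763, and GGAAGT, the core of sites bound by ETS factors, in 23.8% of all and in 11 of the 49, none of the 5 shown. A match is a run of letters, not a site in use.

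The table held 3536246 to 4793224 reads per library, of which the 5 most abundant genes took 29.3% to 33.5%. Of 11 markers of the principal cells of the caput epithelium, 9 were in the table, with summed FPKM (fragments per kilobase, scaled to the depth of the library) of 53143 to 58538 in EDL, 48133 to 50834 in W/Wv and 65531 to 74399 in WT. These markers went both ways, since 2 were higher, 4 lower and 3 did not pass in EDL, and 2 were higher, 6 lower and 1 did not pass in W/Wv (limma). The lipocalin gene Lcn8 had 3.66 FPKM in EDL and 2.55 in W/Wv, against 17981 in WT, whereas its relative Lcn5 had 9752 in EDL and 8035 in W/Wv, against 702 in WT. Testicular germ cells and sperm had 11 of 16 markers in the table, at 15 to 16.2 FPKM in sum in EDL and 14.3 to 15.9 in W/Wv, against 142 to 149 in WT. Smcp, Tnp2, Akap4 and Pgk2 were listed at 0 in both models, and Odf2, at 13.4 FPKM in EDL and 12.6 in W/Wv, made up most of what was left there. Mast cells had 3 of 5 markers in the table, at 0.628 to 0.823 FPKM in sum in EDL, 0 in W/Wv and 0.498 to 0.66 in WT. No listed marker of basal cells, clear and narrow cells, endothelium, fibroblasts, leukocytes or smooth muscle was in the table. Plin4, the 1 adipocyte marker of 5 that was in the table, had 13.4 FPKM in EDL and 11.8 in W/Wv, against 6.45 in WT. Uchl1, the 1 nerve marker of 4 that was in the table, had 5.57 FPKM in EDL and 7.08 in W/Wv, against 45.6 in WT. In whole tissue, fewer cells of a type and less RNA per cell cannot be told apart, and the part of these shifts in the changes below was not tested. Pairs of libraries differed by a chi-square per gene of 3.14 to 7.34 in EDL and 4.87 to 6.65 in W/Wv, against 13.4 to 24.9 in WT, whose libraries were the least alike.

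Most of the 77 loci were weakly expressed. Their median level over the 9 libraries was 2.17 FPKM, against 6.54 FPKM over all genes of the table, 8 had a mean of 10 FPKM or more, and 2, Neat1 and Malat1, of 50 or more. All together they took 0.879%, 0.901% and 0.894% of the reads in the table in EDL libraries and 0.782%, 0.786% and 0.853% in W/Wv libraries, against 0.737%, 0.664% and 0.503% in WT libraries. These are shares of the reads of the 2462 genes, not of whole libraries. By this share, every library of both models was above every WT library. Neat1 and Malat1 made up 62.2% to 76.1% of the reads of the 77 loci. A level of 1 FPKM or more in at least 3 libraries was required for the main test and was met by 50 loci, namely 34 Gm loci, 7 os transcripts, 5 pseudogenes, both Snhg hosts and both nuclear lncRNAs. Of the 50, 45 reached 1 FPKM on average in all 3 groups, and Gm15446, Gm16325, Gm4861, Gm5122 and Snhg11 entered through the groups in which they are higher. Their calls are included in the counts and shares below, although the filter favoured them. Gm4861 is among the lower calls, and the others are among the higher calls, of both models. Counts over all 77 loci without this filter are given near the end. The other 27 loci lie below that level and are described at the end with a count model.

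The comparison of EDL with WT asks what the caput expresses when the testis no longer drains into it. Of the 50 loci tested, 29 rose and 6 fell in EDL, and 15 did not pass (limma on log2(FPKM + 1), Benjamini-Hochberg adjusted p under 0.05 over all genes tested). That is 70% of the loci called, against 75.3% of all 2013 genes tested, so being called was not more frequent among them. All genes, here and below, means genes of this table, not all genes expressed in the caput. How its 2462 genes were chosen is not given, and a gene without a row may still be expressed. Higher calls were 58% of the loci against 39.4% of all genes, and lower calls 12% against 35.9%. The median change was 0.38 over the 50 loci and 0.05 over all genes, on the log2(FPKM + 1) scale, which understates changes of weakly expressed genes. A rise of at least 2-fold on that scale was called in 10 loci (7.1% of all genes) and a fall of that size in 3 (11.2% of all genes). Among all 77 loci, the EDL libraries lay wholly above WT in 38 and wholly below in 13, and overlapped in 26, while 77.4% of the 2013 genes tested did not overlap. Of the 77, 27 lie below the level of the test, and 13 of these overlapped, so the 77 and the 2013 are unlike sets.

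The comparison of W/Wv with WT asks what the caput expresses under a testis that is almost free of germ cells but still drains. The caput of these mice carries the Kit mutant alleles too, and no strain beyond the genotype is named. Missing germ cells, mutant Kit in the caput and strain cannot be told apart in this comparison. Of the 50 loci, 27 rose and 5 fell in W/Wv, and 18 did not pass (limma, same adjustment). The 64% called compare with 70.3% of all genes tested, the 54% higher with 35.3%, and the 10% lower with 35%. The median change was 0.33 over the 50 loci and 0.02 over all genes. A 2-fold rise was called in 8 loci (6.56% of all genes) and a 2-fold fall in 3 (10.3% of all genes). The W/Wv libraries lay wholly above WT in 28 of the 77 loci and wholly below in 10, and overlapped in 39, while 71.9% of the genes tested did not overlap. Here 18 of the 27 loci below the level of the test overlapped, so these sets too are unlike. Both comparisons use the same 3 WT libraries, so their values are given side by side and are not independent.

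By annotation, 19 of 31 lncRNAs tested rose and 3 fell in EDL, and 16 rose and 4 fell in W/Wv. Transcribed pseudogenes rose in 6 of 9 and fell in 1 in EDL, and 6 of 9 rose and 0 fell in W/Wv. Loci annotated as protein coding rose in 3 of 7 and fell in 2 in EDL, and 4 of 7 rose and 1 fell in W/Wv. The shares that rose were 61.3% of lncRNAs, 66.7% of pseudogenes and 42.9% of coding loci in EDL, where 39.4% of all genes tested rose and 35.9% fell. In W/Wv they were 51.6%, 66.7% and 57.1%, where 35.3% of all genes rose and 35% fell. The coding share in EDL was near that of all genes.

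**Figure D1:**
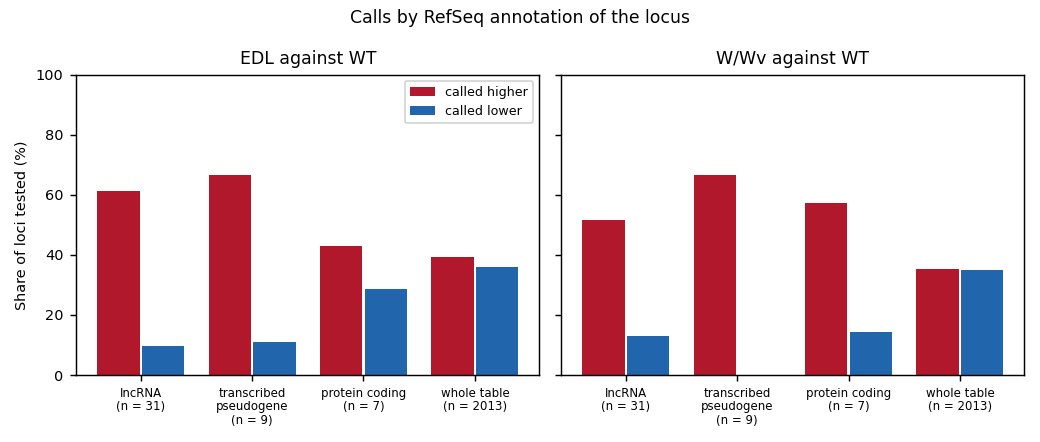
Share of loci called higher (red bars) or lower (blue bars) by limma, in percent of those tested, for each RefSeq annotation and for the whole table, in EDL against WT (left panel) and W/Wv against WT (right panel). Higher calls make up 61.3% of the 31 lncRNAs in EDL and 51.6% in W/Wv, and the whole table has near equal shares of higher and lower calls in both panels.

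**Figure D2:**
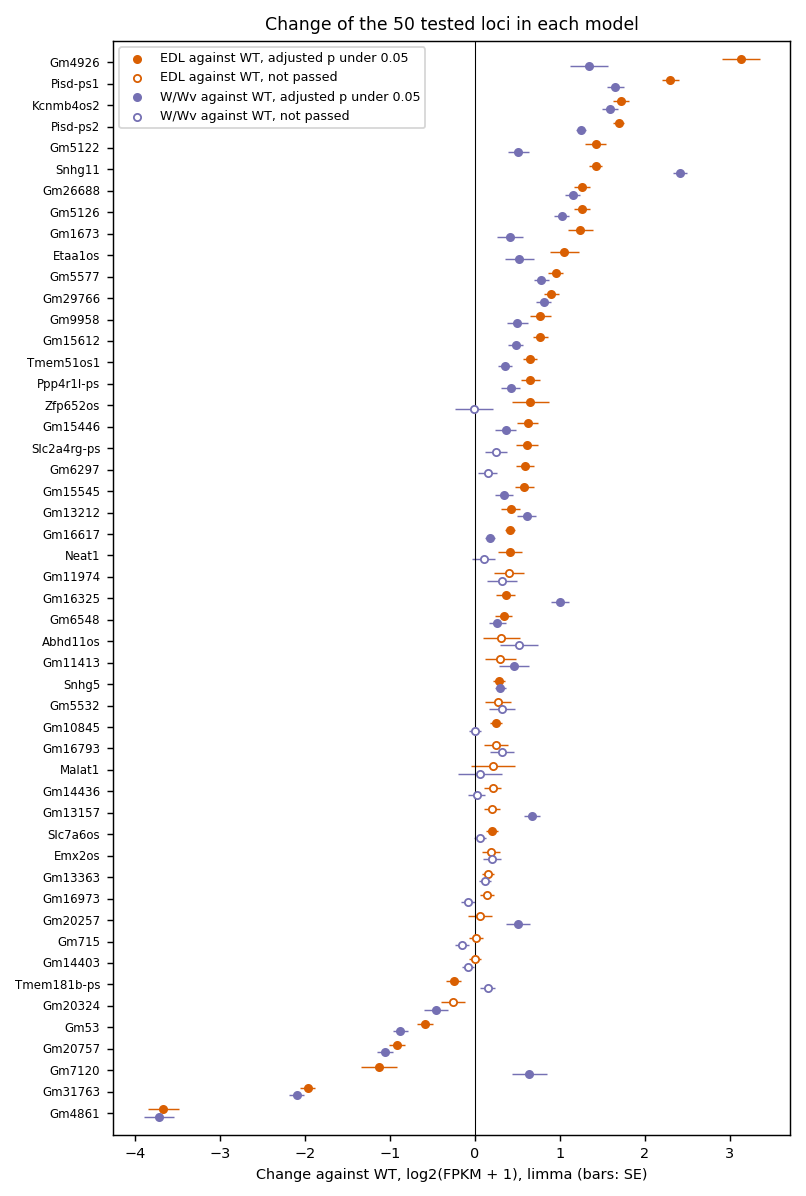
Change of each of the 50 tested loci in EDL (orange) and in W/Wv (violet) against WT, on the log2(FPKM + 1) scale, with the standard error as bars; filled points have an adjusted p under 0.05 and open points did not pass. Both colours use the same WT libraries. Gm4926 leads the rises in EDL at 3.13 and Snhg11 those in W/Wv at 2.41, and Gm4861 has the lowest value in both, at -3.67 in EDL and -3.72 in W/Wv.

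Neat1, the most abundant of the loci, had 246, 227 and 239 FPKM in EDL libraries and 171, 199 and 206 FPKM in W/Wv libraries, against 220, 181 and 141 FPKM in WT libraries. All 3 EDL libraries were above all WT libraries, and W/Wv and WT overlapped. Neat1 rose by 0.41 in EDL (SE 0.14, limma adjusted p = 0.018), and its change in W/Wv was 0.10 (SE 0.14, limma adjusted p = 0.52). The call in EDL was lost with quantile scaling (limma adjusted p = 0.10) and without EDL library 1 (adjusted p = 0.053).

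Malat1, which lies 22036 bases from Neat1 on chromosome 19, had 64.7, 72.3 and 69.6 FPKM in EDL libraries and 65, 54.7 and 67.2 FPKM in W/Wv libraries, against 83.5, 65.7 and 38.2 FPKM in WT libraries. WT libraries alone spanned more than those of both models together, and library 3 was the lowest of the 9 for Malat1 as for Neat1. Its change did not pass in EDL (0.21, SE 0.26, limma adjusted p = 0.48) or in W/Wv (0.06, SE 0.26, limma adjusted p = 0.86). The ratio of Neat1 to Malat1 FPKM was 3.14 to 3.8 in EDL and 2.63 to 3.64 in W/Wv, against 2.63 to 3.7 in WT.

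Of 18 proteins of paraspeckles and nuclear speckles on a list, 6 were in the table and tested. In EDL 4 rose, 0 fell and 2 did not pass, with a median change of 0.21, and in W/Wv 1 rose, 0 fell and 5 did not pass, with a median of 0.09. Of all genes tested, 39.4% rose in EDL and 35.3% in W/Wv. Ewsr1, an RNA-binding protein of the FET family, rose by 0.30 in EDL (limma adjusted p = 3.8e-04), with 123 FPKM in EDL against 100 in WT. The splicing factors Srsf1 and Srsf2 rose by 0.24 and 0.23 in EDL (limma adjusted p = 2.8e-04 and 0.0042), and Tardbp, which encodes the RNA-binding protein TDP-43, rose by 0.18 (adjusted p = 0.0037). Of these, Srsf2 also rose in W/Wv, by 0.18 (limma adjusted p = 0.019). Sfpq, a core paraspeckle protein, changed by 0.06 in EDL and 0.09 in W/Wv, neither of which passed (limma adjusted p = 0.30 and 0.18).

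Snhg11 (chromosome 2, 158375713 to 158386474, GRCm38.p6, plus strand) is the snoRNA host whose promoter is printed first above. It had 3.64, 3.47 and 3.52 FPKM in EDL libraries and 7.45, 8.02 and 8.76 FPKM in W/Wv libraries, against 0.669, 0.602 and 0.844 FPKM in WT libraries. The 3 groups were fully separated, with W/Wv highest and WT lowest. Snhg11 rose by 1.42 in EDL (SE 0.08, limma adjusted p = 2.7e-08) and by 2.41 in W/Wv (SE 0.08, limma adjusted p = 3.4e-10), and mean FPKM was 5.03 times that of WT in EDL and 11.5 times in W/Wv. W/Wv exceeded EDL by 1.0 (SE 0.08, limma adjusted p = 2.6e-05). Because its WT mean is under 1 FPKM, Snhg11 was tested through the models in which it is high.

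Snhg5, a host of box C/D snoRNAs on chromosome 9, differed far less. It had 12.9, 13.6 and 13.2 FPKM in EDL libraries and 14.3, 12.8 and 13.3 FPKM in W/Wv libraries, against 9.62, 11.2 and 11.5 FPKM in WT libraries. Both models lay wholly above WT and overlapped each other. Snhg5 rose by 0.28 in EDL (SE 0.07, limma adjusted p = 0.0034; DESeq2 on recovered reads, adjusted p = 0.065) and by 0.30 in W/Wv (SE 0.07, limma adjusted p = 0.002).

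Gm11974, which RefSeq calls Snhg15, had 5.52, 5.3 and 8.87 FPKM in EDL libraries and 7.52, 5.18 and 5.48 FPKM in W/Wv libraries, against 4.46, 4.2 and 5.23 FPKM in WT libraries. EDL lay wholly above WT, but its change of 0.40 did not pass (SE 0.18, limma adjusted p = 0.065), nor did that of 0.32 in W/Wv (adjusted p = 0.14). It falls outside the rule for named genes and is given here for its host name, after its values were seen. None of 15 proteins of the snoRNA-protein particle on a list was in the table (0 of 15).

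Of 15 factors of nonsense-mediated decay on a list, 2 were in the table. Smg5, which helps to recycle the helicase of this pathway, fell by 0.36 in EDL and by 0.45 in W/Wv (limma adjusted p = 2.1e-04 and 3.5e-05). Upf1, that helicase, fell by 0.21 in W/Wv (limma adjusted p = 0.013) and its change of -0.15 in EDL did not pass (adjusted p = 0.064). Of 18 components of the nuclear RNA exosome and of 3′ end processing, 6 were tested, of which 3 rose, 0 fell and 3 did not pass in EDL, and 1 rose, 0 fell and 5 did not pass in W/Wv. With 39.4% of all genes higher in EDL and 35.3% in W/Wv, the first count was near this background and the second below it. Pabpn1, the nuclear poly-A binding protein, rose by 0.43 in EDL and by 0.18 in W/Wv (limma adjusted p = 1.1e-04 and 0.03). Zcchc8, a subunit of an adaptor of the exosome, and Cpsf6, a cleavage factor, rose in EDL by 0.18 and 0.12 (limma adjusted p = 0.02 and 0.047). Of 14 genes of imprinted domains, such as those that hold Meg3 and H19, 3 were tested. Plagl1, a zinc finger factor, rose by 0.66 in EDL and by 0.98 in W/Wv (limma adjusted p = 1.7e-05 and 6.0e-07). Dlk1, the coding neighbour of Meg3, had a mean of 1.15 FPKM in EDL and 1.46 in W/Wv, against 0.103, 0.177 and 0.366 FPKM in WT libraries. It entered the test only through the models, in which it is high, so its calls are not counted as support. Igf2r fell by 0.20 in EDL (limma adjusted p = 0.013) and did not pass in W/Wv (-0.06, adjusted p = 0.40).

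Pisd-ps1 and Pisd-ps2 are pseudogenes of Pisd, the mitochondrial decarboxylase that makes phosphatidylethanolamine from phosphatidylserine, and Pisd itself is not a row of this table. Pisd-ps1 (chromosome 11, 3124002 to 3131945) had 62.9, 65 and 64.7 FPKM in EDL libraries and 40.7, 36.7 and 44.3 FPKM in W/Wv libraries, against 10.8, 11.4 and 14.8 FPKM in WT libraries. Pisd-ps2 (chromosome 17, 3064318 to 3084183) had 11.7, 12.2 and 12.2 FPKM in EDL libraries and 8.28, 8.76 and 8.78 FPKM in W/Wv libraries, against 2.83, 3.16 and 3.13 FPKM in WT libraries. For both pseudogenes the 3 groups were fully separated, with EDL highest and WT lowest. Pisd-ps1 rose by 2.30 in EDL (SE 0.10, limma adjusted p = 7.3e-09) and by 1.65 in W/Wv (SE 0.10, limma adjusted p = 1.0e-07). Pisd-ps2 rose by 1.69 in EDL (SE 0.06, limma adjusted p = 5.7e-10) and by 1.25 in W/Wv (SE 0.06, limma adjusted p = 6.5e-09). The ratio of the first to the second was 5.32 to 5.36 in EDL and 4.19 to 5.04 in W/Wv, against 3.6 to 4.73 in WT, so the 2 copies, on different chromosomes, did not keep 1 ratio in every library.

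Sequence shared with other loci limits what these values say. Of all 50-base stretches of the annotated transcripts, 11.4% of those of Pisd-ps1 also occur in another gene (9.28% in Pisd) and 12.9% of those of Pisd-ps2. Pisd-ps1 also overlaps Sfi1, a centrosomal protein gene on the opposite strand, which had 25.3 ± 0.419 FPKM in EDL and 26.5 ± 1.82 in W/Wv, against 7.62 ± 0.825 in WT (SD, n = 3 each). Sfi1 rose by 1.61 in EDL and by 1.67 in W/Wv (limma adjusted p = 3.9e-09 and 3.0e-09). The libraries mark strand per the labels' protocols, but the sources used here do not say whether the counting used it, so reads of overlapping partners may not be told apart.

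The other pseudogenes were weaker. Ppp4r1l-ps, a copy related to a regulatory subunit of protein phosphatase 4, had 3.43, 3.69 and 3.22 FPKM in EDL libraries and 2.65, 2.84 and 2.9 FPKM in W/Wv libraries, against 2.24, 2.03 and 1.33 FPKM in WT libraries. Both models lay wholly above WT, with rises of 0.65 in EDL (SE 0.11, limma adjusted p = 3.0e-04) and 0.42 in W/Wv (SE 0.11, limma adjusted p = 0.0061). Slc2a4rg-ps had 3.39, 2.66 and 2.66 FPKM in EDL libraries and 1.99, 1.81 and 2.31 FPKM in W/Wv libraries, against 1.76, 1.91 and 1.05 FPKM in WT libraries. It rose by 0.61 in EDL (SE 0.13, limma adjusted p = 0.0014), where it lay wholly above WT, and its change of 0.25 in W/Wv did not pass (adjusted p = 0.12). Tmem181b-ps had 3.15, 3.52 and 3.47 FPKM in EDL libraries and 4.18, 5.4 and 4.78 FPKM in W/Wv libraries, against 4.47, 4.15 and 3.99 FPKM in WT libraries. It fell by 0.25 in EDL (SE 0.09, limma adjusted p = 0.021), a call lost without EDL library 1 (adjusted p = 0.076) or WT library 1 (0.065), and its change of 0.15 in W/Wv did not pass (adjusted p = 0.15). Tmem181b-ps shares 44.4% of its 50-base stretches with Tmem181a, so its reads may in part be those of the intact gene. Cyp4f41-ps, related to cytochrome P450 enzymes, and Nlrp5-ps, related to a maternal-effect gene of the oocyte, stayed below the level required for the test.

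Kcnmb4os2 (chromosome 10, 116473163 to 116474987, plus strand) runs opposite to Kcnmb4, which encodes an accessory subunit of the large-conductance calcium-activated potassium channel. It had 6.19, 6.39 and 6.83 FPKM in EDL libraries and 6.76, 5.1 and 5.73 FPKM in W/Wv libraries, against 1.1, 1.27 and 1.42 FPKM in WT libraries. Both models lay far above WT and overlapped each other. Kcnmb4os2 rose by 1.72 in EDL (SE 0.09, limma adjusted p = 1.9e-08) and by 1.59 in W/Wv (SE 0.09, limma adjusted p = 4.0e-08). Kcnmb4 had 22.2 ± 1.78 FPKM in EDL and 20.4 ± 1.88 in W/Wv, against 6.8 ± 1.86 in WT (SD, n = 3 each), rises of 1.60 and 1.48 (limma adjusted p = 3.8e-06 and 7.4e-06). The pair overlaps on opposite strands, so its reads may not be told apart. Kcnmb4 is the one gene that lends its name to a member and is a row of this table.

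Among the other os transcripts, Etaa1os, beside the gene of an activator of the ATR kinase, had 3.89, 3.21 and 3.81 FPKM in EDL libraries and 2.69, 1.73 and 2.3 FPKM in W/Wv libraries, against 1.59, 0.686 and 1.57 FPKM in WT libraries. It rose by 1.05 in EDL (SE 0.17, limma adjusted p = 1.9e-04) and by 0.52 in W/Wv (SE 0.17, limma adjusted p = 0.017), the second call being lost without W/Wv library 1 (adjusted p = 0.064) and with DESeq2 (adjusted p = 0.10). Both models lay wholly above WT. Tmem51os1 had 3.88, 4.49 and 3.64 FPKM in EDL libraries and 3.17, 2.86 and 3.15 FPKM in W/Wv libraries, against 2.2, 2.05 and 2.28 FPKM in WT libraries. Its rises were 0.65 in EDL (SE 0.08, limma adjusted p = 1.9e-05) and 0.35 in W/Wv (SE 0.08, limma adjusted p = 0.0022), and the 3 groups were fully separated.

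Zfp652os had 3.34, 2.62 and 2.45 FPKM in EDL libraries and 0.826, 2.32 and 1.25 FPKM in W/Wv libraries, against 1.68, 0.901 and 1.74 FPKM in WT libraries. EDL lay wholly above WT, while W/Wv and WT overlapped. Zfp652os rose by 0.65 in EDL (SE 0.22, limma adjusted p = 0.019), a call lost without EDL library 1 (adjusted p = 0.066), without WT library 2 (0.069) and with DESeq2 (0.073), and its change in W/Wv was -0.01 (adjusted p = 0.97). Slc7a6os, which despite its suffix encodes a protein linked to nuclear import of RNA polymerase II, had 13.4, 13 and 13.7 FPKM in EDL libraries and 13.4, 12.2 and 10.6 FPKM in W/Wv libraries, against 12, 11.2 and 11.2 FPKM in WT libraries. The rise of Slc7a6os in EDL was 0.20 (SE 0.07, limma adjusted p = 0.028) and was lost with edgeR (adjusted p = 0.091), DESeq2 (0.14) and median-ratio scaling (0.062), and without WT library 2 (0.07), WT library 3 (0.061), EDL library 1 (0.064) or EDL library 3 (0.085). Its W/Wv change of 0.06 did not pass (limma adjusted p = 0.49).

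Abhd11os had 2.75, 3.3 and 2.9 FPKM in EDL libraries and 4.46, 2.78 and 3.68 FPKM in W/Wv libraries, against 2.75, 3.04 and 1.17 FPKM in WT libraries. The groups overlapped, and its changes of 0.31 in EDL (SE 0.22, limma adjusted p = 0.22) and 0.52 in W/Wv (SE 0.22, adjusted p = 0.059) did not pass. Emx2os, opposite to a homeobox gene of urogenital development, had 1.52, 1.46 and 1.45 FPKM in EDL libraries and 1.56, 1.29 and 1.63 FPKM in W/Wv libraries, against 1.55, 1.1 and 0.918 FPKM in WT libraries. WT library 1 was among the values of the models, and neither 0.19 in EDL (limma adjusted p = 0.13) nor 0.20 in W/Wv (adjusted p = 0.12) passed. Fancd2os, annotated as protein coding, had 9 reads in EDL, 5 in W/Wv and 3 in WT over 3 libraries each.

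**Figure D3:**
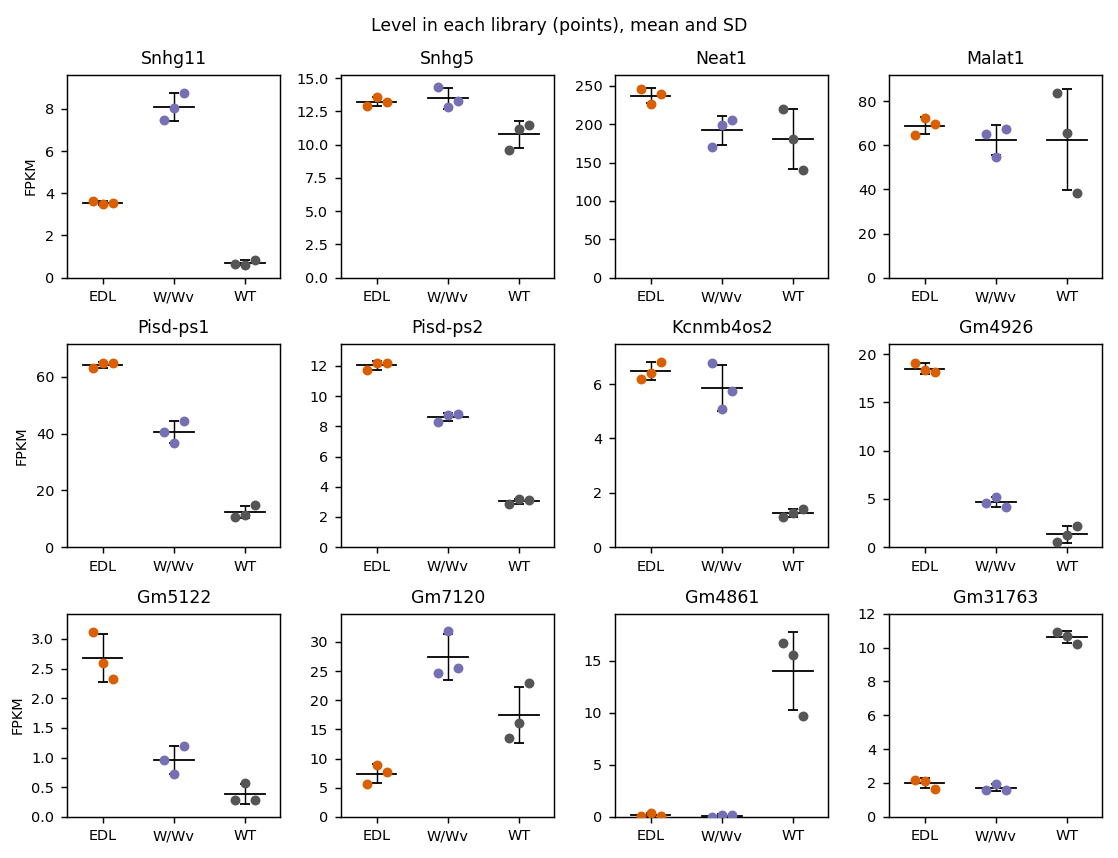
FPKM of 12 loci in each library (points), with the mean (horizontal line) and SD (bars), n = 3 per group, in EDL, W/Wv and WT from left to right; each panel starts at 0 on its own scale. Snhg11 is highest in W/Wv, Pisd-ps1, Pisd-ps2, Gm4926 and Gm5122 are highest in EDL, Gm7120 is lowest in EDL and highest in W/Wv, and Gm4861 and Gm31763 are near the bottom in both models.

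Gm4926, a transcribed pseudogene (chromosome 11, 46636506 to 46645006), had 19.1, 18.3 and 18.1 FPKM in EDL libraries and 4.61, 5.22 and 4.16 FPKM in W/Wv libraries, against 0.505, 1.28 and 2.22 FPKM in WT libraries. The 3 groups were fully separated, and the WT libraries varied the most relative to their mean. Gm4926 rose by 3.13 in EDL (SE 0.22, limma adjusted p = 1.0e-06) and by 1.34 in W/Wv (SE 0.22, limma adjusted p = 4.6e-04), with mean FPKM 13.9 times that of WT in EDL and 3.5 times in W/Wv. Of its 50-base stretches, 2.11% occur in another gene, most of them in Havcr1 (1.86%).

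Gm5122, a lncRNA whose promoter is printed above (chromosome 9, 61017069 to 61019797), had 3.12, 2.6 and 2.32 FPKM in EDL libraries and 0.964, 0.722 and 1.2 FPKM in W/Wv libraries, against 0.285, 0.571 and 0.284 FPKM in WT libraries. Its groups were fully separated in the same order, EDL over W/Wv over WT. Gm5122 rose by 1.42 in EDL (SE 0.12, limma adjusted p = 8.3e-07) and by 0.51 in W/Wv (SE 0.12, limma adjusted p = 0.0029). The locus entered the test through EDL, where its mean is above 1 FPKM.

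Gm1673, annotated as protein coding, had 21.3, 18 and 19.4 FPKM in EDL libraries and 12.4, 9.12 and 10.3 FPKM in W/Wv libraries, against 5.86, 9.31 and 8.21 FPKM in WT libraries. EDL stood wholly apart, while W/Wv and WT overlapped by 1 library each. Its rise was 1.24 in EDL (SE 0.15, limma adjusted p = 3.2e-05). In W/Wv it was 0.41 (SE 0.15, limma adjusted p = 0.03), a call lost with edgeR (adjusted p = 0.097) and DESeq2 (0.14) and without WT library 1 (0.08, with a change of 0.25), WT library 3 (0.059), W/Wv library 1 (0.11) or W/Wv library 3 (0.066).

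Gm26688, a lncRNA opposite to Tfap2a, the gene of the transcription factor AP-2 alpha, had 4.01, 3.6 and 4.08 FPKM in EDL libraries and 3.49, 3.6 and 3.51 FPKM in W/Wv libraries, against 1.27, 0.79 and 1.11 FPKM in WT libraries. Gm5126, on the X chromosome, had 5.17, 5.08 and 5.74 FPKM in EDL libraries and 4.74, 3.94 and 4.41 FPKM in W/Wv libraries, against 1.45, 1.83 and 1.65 FPKM in WT libraries. Both loci lay wholly above WT in both models. Gm26688 rose by 1.26 in EDL and by 1.15 in W/Wv (SE 0.09 each, limma adjusted p = 2.4e-07 and 5.2e-07). Gm5126 rose by 1.26 in EDL and by 1.02 in W/Wv (SE 0.09 each, limma adjusted p = 1.1e-07 and 6.8e-07).

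Gm5577, a lncRNA 46 bases from the linker histone gene H1fx, had 4.02, 4.75 and 4.6 FPKM in EDL libraries and 4.04, 3.52 and 4.02 FPKM in W/Wv libraries, against 2.14, 1.84 and 1.53 FPKM in WT libraries. It rose by 0.95 in EDL and by 0.78 in W/Wv (SE 0.09 each, limma adjusted p = 3.0e-06 and 1.7e-05). H1fx rose by 0.44 and 0.35 (limma adjusted p = 5.8e-04 and 0.0032). Gm29766, without a RefSeq match, had 8.99, 8.34 and 8.51 FPKM in EDL libraries and 8.69, 6.78 and 8.89 FPKM in W/Wv libraries, against 3.78, 4.55 and 4.18 FPKM in WT libraries. Neither model overlapped WT for these loci, and the rises of Gm29766 were 0.90 in EDL and 0.81 in W/Wv (SE 0.09 each, limma adjusted p = 4.6e-06 and 1.1e-05). Gm9958, 420 bases from Ankrd17, had 4.54, 4.17 and 4.26 FPKM in EDL libraries and 3.39, 3.86 and 3.03 FPKM in W/Wv libraries, against 1.78, 1.84 and 2.84 FPKM in WT libraries. It rose by 0.77 in EDL and by 0.50 in W/Wv (SE 0.12 each, limma adjusted p = 1.2e-04 and 0.003), again without overlap.

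Gm16325, a lncRNA of chromosome 3, leaned towards W/Wv. It had 1.17, 1.32 and 1.4 FPKM in EDL libraries and 2.18, 3.24 and 2.44 FPKM in W/Wv libraries, against 0.706, 0.726 and 0.96 FPKM in WT libraries. The 3 groups were fully separated, with rises of 0.36 in EDL (SE 0.11, limma adjusted p = 0.012) and 1.0 in W/Wv (SE 0.11, limma adjusted p = 7.5e-06). Because its WT mean is under 1 FPKM, Gm16325 was tested through the models, in which it is higher. Gm13157, or Zfp984, a zinc finger gene, had 3.89, 3.69 and 4.14 FPKM in EDL libraries and 5.85, 6.34 and 5.22 FPKM in W/Wv libraries, against 2.75, 3.52 and 3.62 FPKM in WT libraries. It rose by 0.67 in W/Wv (SE 0.09, limma adjusted p = 6.2e-05) and its change of 0.20 in EDL did not pass (adjusted p = 0.079), although EDL too lay wholly above WT. Gm13157 shares 46.9% of its 50-base stretches with Gm13212, another member, so reads of the 2 may be divided between them in a way the table does not show. Gm20257, a pseudogene that shares 14.4% of such stretches with Casp8, had 1.29, 1.41 and 1.71 FPKM in EDL libraries and 2.87, 1.98 and 2.35 FPKM in W/Wv libraries, against 1.25, 1.88 and 1.03 FPKM in WT libraries. W/Wv lay wholly above both other groups, which overlapped, and Gm20257 rose by 0.51 in W/Wv (SE 0.14, limma adjusted p = 0.0054) with a change of 0.06 in EDL (adjusted p = 0.70).

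Falls were fewer. Gm4861 (chromosome 3, 137548991 to 137555331), which RefSeq annotates as protein coding and GENCODE as a long intergenic RNA, had 0.0571, 0.343 and 0.0573 FPKM in EDL libraries and 0, 0.206 and 0.138 FPKM in W/Wv libraries, against 16.7, 15.5 and 9.72 FPKM in WT libraries. Both models were close to 0, and every WT library was far above them. Gm4861 fell by 3.67 in EDL and by 3.72 in W/Wv (SE 0.18 each, limma adjusted p = 1.4e-08 for both). It reached 1 FPKM only in WT libraries, so it was tested through the group in which it is high. None of its 50-base stretches recurs elsewhere in the transcripts (0%). The germ cell markers given above fell with it, among them Prm1 at 0.0727 FPKM in EDL and 0.0931 in W/Wv, against 10.1 in WT, and their part in this fall was not tested.

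Gm31763 (chromosome 10, 67005075 to 67041326), a lncRNA opposite to Reep3, is the locus of the printed promoter with TATAAA on its opposite strand. It had 2.15, 2.14 and 1.63 FPKM in EDL libraries and 1.61, 1.95 and 1.58 FPKM in W/Wv libraries, against 10.9, 10.7 and 10.2 FPKM in WT libraries. The WT libraries agreed closely and stood far above both models. Gm31763 fell by 1.97 in EDL and by 2.1 in W/Wv (SE 0.09 each, limma adjusted p = 4.3e-09 and 2.9e-09).

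Gm20757, an intergenic lncRNA of chromosome 10, had 2.18, 1.59 and 2.19 FPKM in EDL libraries and 1.54, 1.81 and 1.75 FPKM in W/Wv libraries, against 4.34, 4.77 and 4.78 FPKM in WT libraries. Gm53, a lncRNA of the Hoxb cluster that lies 6973 bases from Hoxb9, had 7.06, 8.22 and 9.17 FPKM in EDL libraries and 6.4, 6.61 and 6.29 FPKM in W/Wv libraries, against 14, 12.6 and 11.5 FPKM in WT libraries. Both loci lay wholly below WT in both models. Gm20757 fell by 0.92 in EDL and by 1.06 in W/Wv (SE 0.09 each, limma adjusted p = 3.9e-06 and 1.2e-06). Gm53 fell by 0.59 in EDL and by 0.88 in W/Wv (SE 0.09 each, limma adjusted p = 1.1e-04 and 4.0e-06). The homeobox gene Hoxb5, 38852 bases from Gm53, changed the other way in EDL (0.16, limma adjusted p = 0.034) and did not pass in W/Wv (-0.03, adjusted p = 0.68).

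Gm20324, a lncRNA opposite to Tcf20, had 1.27, 1.58 and 1.89 FPKM in EDL libraries and 0.787, 1.53 and 1.48 FPKM in W/Wv libraries, against 2.29, 1.75 and 2.23 FPKM in WT libraries. It fell by 0.46 in W/Wv (SE 0.14, limma adjusted p = 0.013, but 0.051 without W/Wv library 1), and its change of -0.26 in EDL did not pass (adjusted p = 0.12), with 1 EDL library among the WT values.

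Gm7120 (chromosome 13, 119488086 to 119610459), the transmembrane protein gene Tmem267, was the one locus called in opposite directions. It had 5.62, 8.92 and 7.72 FPKM in EDL libraries and 24.6, 31.9 and 25.6 FPKM in W/Wv libraries, against 13.5, 16.1 and 22.9 FPKM in WT libraries. The 3 groups were fully separated, with WT between the models. Gm7120 fell by 1.13 in EDL (SE 0.21, limma adjusted p = 0.0012) and rose by 0.64 in W/Wv (SE 0.21, limma adjusted p = 0.024). The rise in W/Wv did not pass without WT library 1 (adjusted p = 0.078), WT library 2 (0.073) or W/Wv library 2 (0.079), whereas the fall in EDL passed under each alternative. Its FPKM per read differed between libraries by up to 1.25 times. The nearest gene of the table, 4833420G17Rik, lies 1966 bases away and changed by 0.02 in EDL and -0.01 in W/Wv (limma adjusted p = 0.79 and 0.92). Gm7120 also overlaps the coding gene 3110070M22Rik on the opposite strand, so reads of this pair may not be told apart.

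Setting W/Wv directly against EDL asks where the models differ from each other. Of the 50 loci, 6 were higher and 9 lower in W/Wv, and 35 did not pass (limma, same adjustment), which is 30% called against 14% of all genes tested. Higher calls were 12% of the loci against 6.95% of all genes, and lower calls 18% against 7%. The median change was -0.16 over the 50 loci and 0.00 over all genes. A 2-fold difference was called higher in 2 loci (0.199% of all genes) and lower in 1 (0.397%), and in either direction in 0.596% of all genes. The W/Wv libraries lay wholly above EDL in 10 of the 77 loci and wholly below in 24, and overlapped in 43, while 38.7% of the genes tested did not overlap. The 77 include 27 loci below the level of the test, of which 21 overlapped, so the sets are unlike. With only the W/Wv and EDL libraries in the fit, 23 loci were called, 6 higher and 17 lower. The share of all genes called under that fit is not given here, so this count is not read as a trait of the loci.

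Gm7120 led the loci higher in W/Wv, at 27.4 ± 3.99 FPKM in W/Wv against 7.42 ± 1.67 in EDL (SD, n = 3 each), a difference of 1.76 (SE 0.21, limma adjusted p = 0.0012). Snhg11 followed at 1.0, then Gm16325 at 0.65 (limma adjusted p = 0.0032), Gm13157 at 0.47 (0.0071), Gm20257 at 0.45 (0.049) and Tmem181b-ps at 0.40 (0.011). The call of Gm20257 was lost under 13 of 19 alternatives, among them without any 1 EDL library, without W/Wv library 1 (limma adjusted p = 0.17) or 3 (0.11) and without WT library 1 (0.054), and that of Tmem181b-ps without EDL library 1 (0.051). All W/Wv libraries were above all EDL libraries for each of these 6.

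Gm4926 led the loci lower in W/Wv, at 4.66 ± 0.536 FPKM in W/Wv against 18.5 ± 0.573 in EDL (SD, n = 3 each), a difference of -1.79 (SE 0.22, limma adjusted p = 0.001). Gm5122 followed at -0.91 (limma adjusted p = 7.1e-04), Gm1673 at -0.83 (0.0057), Pisd-ps1 at -0.65 (0.0021), Pisd-ps2 at -0.44 (7.4e-04) and Gm6297, a lncRNA opposite to Dnaja1, at -0.44 (0.018). Smaller differences were those of Tmem51os1 at -0.30 (limma adjusted p = 0.032), Gm10845 at -0.25 (0.03) and Gm16617, opposite to Arhgef40, at -0.23 (0.039). These 3 calls and that of Gm6297 did not pass in several fits that left out 1 EDL or W/Wv library, with adjusted p up to 0.12 for Tmem51os1, 0.11 for Gm10845, 0.13 for Gm16617 and 0.083 for Gm6297. Gm16617 also did not pass with edgeR (adjusted p = 0.24) or DESeq2 (0.42), and Tmem51os1 did not with edgeR (0.073), DESeq2 (0.14) or quantile scaling (limma adjusted p = 0.062). The differences of the 5 largest passed under every alternative.

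Gm6297 had 3.45, 2.64 and 3.2 FPKM in EDL libraries and 1.6, 2.34 and 2.12 FPKM in W/Wv libraries, against 1.62, 1.78 and 1.72 FPKM in WT libraries. Gm10845, an intergenic lncRNA of chromosome 14, had 7.57, 8.43 and 8.14 FPKM in EDL libraries and 6.31, 6.45 and 7.12 FPKM in W/Wv libraries, against 6.89, 6.59 and 6.4 FPKM in WT libraries. For both loci EDL stood above the other groups, which overlapped. Gm6297 rose by 0.59 in EDL (SE 0.11, limma adjusted p = 3.6e-04) and Gm10845 by 0.25 (SE 0.07, limma adjusted p = 0.0053). Gm16617 had 10.8, 10.2 and 10.5 FPKM in EDL libraries and 9.32, 8.72 and 8.47 FPKM in W/Wv libraries, against 8.21, 7.77 and 7.07 FPKM in WT libraries. Its groups were fully separated, with rises of 0.41 in EDL (SE 0.06, limma adjusted p = 1.3e-04) and 0.18 in W/Wv (SE 0.06, limma adjusted p = 0.025), the second of which was lost with edgeR (adjusted p = 0.23), with DESeq2 (0.39), without WT library 3 (0.091) and without W/Wv library 1 (0.099).

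**Figure D4:**
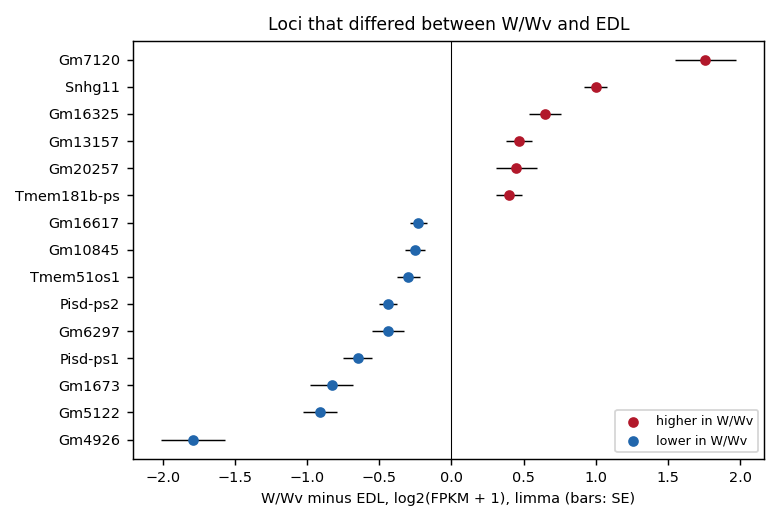
Difference of W/Wv minus EDL, on the log2(FPKM + 1) scale with the standard error as bars, for the 15 loci called by limma at an adjusted p under 0.05; red points are higher and blue points lower in W/Wv. Gm7120 has the highest value, 1.76, and Gm4926 the lowest, -1.79.

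Of the Gm loci that were tested and fall outside the rule for named genes, Gm13212, Gm15446, Gm15545, Gm15612 and Gm6548 rose by 0.34 to 0.77 in EDL and by 0.26 to 0.61 in W/Wv (limma). In W/Wv, where the groups of Gm6548 and Gm15545 overlap, the call of Gm6548 was lost under 7 of 20 alternatives (adjusted p up to 0.13), among them the fits without WT replicate 1 or 2 or W/Wv replicate 2 or 3. That of Gm15545 was lost under 3 of 20 (up to 0.07), among them without WT replicate 3 or W/Wv replicate 1, and that of Gm15446 without W/Wv replicate 2 (limma adjusted p = 0.063). Gm11413 rose by 0.46 in W/Wv with overlapping groups (limma adjusted p = 0.037), a call lost under 5 of 19 alternatives (adjusted p up to 0.12), among them without WT replicate 1 or 2 or W/Wv replicate 1 or 2, and did not pass in EDL (0.30, adjusted p = 0.15). Gm14403, Gm14436, Gm16793, Gm16973, Gm5532 and Gm715 had changes of 0.00 to 0.27 in EDL and -0.15 to 0.32 in W/Wv, none of which passed. The most abundant Gm locus was Gm13363, a processed pseudogene inside Etl4, at 40.2 ± 0.93 FPKM in EDL and 39.5 ± 1.75 in W/Wv, against 36.4 ± 4.12 in WT (SD, n = 3 each). Its changes of 0.15 and 0.12 did not pass (limma adjusted p = 0.075 and 0.15), and 70.2% of its 50-base stretches occur in another gene, so its level is uncertain. It was chosen for its level after its values were seen.

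Promoters of the loci that rose in EDL held a median of 20 CG dinucleotides (range 3 to 40, 19 loci with a promoter), against 4 for those that fell (4 to 22, 3 loci) and 9 for those that did not pass (0 to 29, 9 loci). In W/Wv the medians were 16.5 (20 loci), 4 (3 loci) and 9.5 (8 loci). The 18 loci below the level of the test had a median of 5. The groups of promoters are small and were not tested against each other.

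Of the 27 loci under the level of the test, each has reads in the table, and edgeR's quasi-likelihood test on the recovered reads of all genes with a read called 4 higher and 7 lower in EDL, with 16 not passed (of all 2459 genes, 71.8% were called, 33.2% higher and 38.6% lower). In W/Wv it called 2 higher and 6 lower (66.1% of all genes, 30.3% higher and 35.7% lower), and between W/Wv and EDL 1 higher and 1 lower (14.4% of all genes, 8.78% higher and 5.57% lower). Over all 77 loci, without the filter, that test called 32 higher and 13 lower in EDL, which is 41.6% and 16.9%. In W/Wv it called 27 higher and 11 lower, which is 35.1% and 14.3%. Between W/Wv and EDL it called 6 higher and 8 lower, which is 7.79% and 10.4%. The shares of all genes under that test are those given above. The loci named next, other than the 2 pseudogenes, were chosen after their values were seen, as they lie outside the rule for named genes.

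Gm4070 had 8 reads in EDL and 9 in W/Wv, against 219 in WT over 3 libraries each, with edgeR changes of -4.86 and -4.47 (adjusted p = 1.1e-09 and 3.1e-09). It shares 95% of its 50-base stretches with Gvin1, a very large interferon-inducible GTPase, so these reads may not be its own. Gm2115, 3921 bases from Fah, the last enzyme of tyrosine breakdown, had 2 reads in EDL and 7 in W/Wv, against 41 in WT (edgeR adjusted p = 1.1e-04 and 0.0024). Fah itself fell by 1.80 in EDL and by 2.04 in W/Wv (limma adjusted p = 3.3e-09 and 1.2e-09). Gm11780 had 1 read in EDL and 1 in W/Wv, against 18 in WT (edgeR adjusted p = 0.0014 and 0.0027). Gm9199 had 0 reads in EDL and 1 in W/Wv, against 16 in WT, which, with 3 reads per group taken as the floor, makes its EDL level at least 5.86-fold lower (edgeR adjusted p = 0.0056 in EDL and 0.024 in W/Wv), although its WT libraries overlap those of the models.

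Gm11651, a lncRNA of chromosome 11, had 31 reads in EDL and 23 in W/Wv, against 5 in WT, rises of 2.39 and 2.2 with edgeR (adjusted p = 0.0012 and 0.0037). Gm996, or Ajm1, named as a component of the apical junction of epithelial cells, had 209 reads in EDL and 195 in W/Wv, against 115 in WT, rises of 0.71 and 0.85 (edgeR adjusted p = 0.0048 and 0.0015). Cyp4f41-ps had 69 reads in EDL and 39 in W/Wv, against 30 in WT, and its rise in EDL was 1.05 (edgeR adjusted p = 0.016), with overlapping groups. Nlrp5-ps had 37 reads in EDL and 61 in W/Wv, against 63 in WT, a fall of 0.93 in EDL (edgeR adjusted p = 0.013), and it exceeded EDL in W/Wv by 0.95 (adjusted p = 0.049). Of its 50-base stretches, 38.1% occur in Vmn1r90, a gene it overlaps. Gm17252, or Pate1, of a family of secreted proteins of the male tract, had 2 reads in EDL, 2 in W/Wv and 1 in WT, too few to show a difference at this depth.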

How the data were processed

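Poly-A RNA of the caput epididymis was sequenced in 9 stranded mRNA libraries, per the labels' protocols, and groups and replicate numbers come from the sample titles. Per the file headers, the authors deposited a normalized FPKM and a normalized count, which is a signal, for every gene of each library. The sources used here give neither this normalization, nor how the 2462 genes were chosen, nor whether counting used the strand. TopHat2 2.1.1, Cufflinks 2.2.1 and mm10 are named, with no role, per the submitters' processing notes. Whole reads were recovered from the deposited normalized counts by dividing each library by its step, and 98.8% to 99.0% of values came out whole within 0.1 of a read. Every library was taken as 1 replicate. No pair of libraries within a group matched within sampling noise, which does not show that they come from separate animals.

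The 77 loci and all lists were chosen with earlier results of these data known. The main test was limma 3.58.1 (trend, robust) in R 4.3.3 on log2(FPKM + 1), over the 2013 genes that reached 1 FPKM in 3 or more libraries. All 9 libraries entered 1 fit, with Benjamini-Hochberg adjustment over the whole set of 2013 genes and a threshold of 0.05. The rule for named genes took every member that is not a Gm locus, in each comparison up to 8 Gm loci with the highest called rises and 8 with the deepest called falls that had 1 FPKM or more in the higher group, members called in opposite directions, members of 50 FPKM or more in a group, and up to 4 genes of each pathway list. The alternatives were other pseudocounts, filters and scalings, fitting each pair of groups alone, blocking on replicate number, plain empirical Bayes, edgeR 4.0.16 and DESeq2 1.42.0 on recovered reads, and leaving out each library. Running edgeR on all genes with a read was added after seeing the data. The fits were tested on simulated data. Coordinates, annotations and promoters are RefSeq's (GRCm38.p6), and neighbours, strands and shared 50-base stretches come from GENCODE transcripts of the same build. Plots were drawn with matplotlib 3.10.9. The floor of 3 reads covers counting error only.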

Additional observations from a re-analysis of the deposited data

How the results depend on the processing

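None of the 71 called changes of named loci reversed its direction under an alternative, and 55 of them passed under every alternative run on them, namely 25 of 30 in EDL against WT, 21 of 26 in W/Wv against WT and 9 of 15 in W/Wv against EDL. The share of all genes called is given only for the main fit and for edgeR on all genes with a read. The other counts here show how calls depend on the setting, not how the loci compare with all genes. The counts of loci called moved by more than 1.5 times under 2 settings. With a filter of 5 FPKM, 19 of the 24 loci still tested were called in EDL against WT and 17 in W/Wv against WT, since fewer loci entered. With only the 2 groups compared in the fit, 23 loci were called in W/Wv against EDL (15 with all 9 libraries in it). With all 9, the spread of the WT libraries, the least alike, also enters the p-values of this comparison. Its part in the difference was not tested. Leaving out 1 library gave 33 to 38 calls in EDL against WT, 28 to 34 in W/Wv against WT and 10 to 20 in W/Wv against EDL. Deviations of same-numbered libraries from their group means had correlations of -0.34 to 0.08, and those of other-numbered libraries of -0.12 to 0.27. With 3 libraries per mean, the deviations within a group depend on each other, so these correlations cannot exclude pairing. With a replicate block 36, 30 and 13 loci were called in the same order of comparisons. The counts were 34, 30 and 12 with edgeR, 32, 27 and 12 with DESeq2, and 45, 38 and 14 with edgeR on all genes with a read, which was chosen after seeing the data. Quantile scaling shifted the median change of all genes to 0.122 in EDL and 0.105 in W/Wv, against 0.048 and 0.018 as deposited, and called 31 higher and 6 lower loci in EDL. Depth limits the 27 loci under the filter, most of which have fewer than 100 reads over the 9 libraries.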
